A study of Mus musculus with 16 samples.

Results

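The aryl hydrocarbon receptor and its immediate circuit were examined as 6 genes: Ahr, its partner Arnt, its repressor Ahrr, and the induced genes Tiparp, Cyp1a1 and Cyp1b1. They were chosen by name because 5-aminosalicylic acid (5-ASA) is a reported agonist of the receptor, and every probe whose gene name in the scanner files equals a member was taken. This gave 11 probes of 55681 that are not controls. Of the 6 members, 4 (Ahr, Arnt, Ahrr and Tiparp) were bright enough to test (the scanner's well above background flag set on 4 or more of the 16 arrays), among 24543 genes tested in all. Cyp1a1 and Cyp1b1 carried that flag on 0 of 16 arrays and are described without a test in the main comparison.

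All 16 mice were ApcMin/+, which carry an inactivating mutation in a single copy of the tumour suppressor Apc, and macroscopically tumour-free colon was taken at day 28. The 6 mice of the 5-ASA group had dextran sulphate sodium (DSS, an agent that injures the colonic epithelium) at 1.5% by weight and volume for 3 days, plus 5-ASA. The 6 Control mice had the same DSS course and saline, and the 4 Sham mice had neither DSS nor 5-ASA. The submitters' protocol puts 5-ASA or saline directly in the colorectum over 28 days, whereas their sample descriptions put 5-ASA, or nothing, in the water over the 25 days that followed DSS. Dose, age and sex of the mice are not given in the sources used here, and no group of mice without the Apc mutation was analysed here. Each mouse has 1 array, the titles call the mice biological replicates, and with 4 to 6 mice a group the number of arrays limits the precision.

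The receptor is a ligand-activated transcription factor of the bHLH-PAS family, held in the cytosol by the chaperone HSP90 until a ligand binds. It then enters the nucleus, pairs with ARNT and binds DNA elements with the core GCGTG, which raises CYP1 monooxygenases, AHRR and TiPARP. AHRR competes for ARNT, TiPARP adds ADP-ribose to the receptor and promotes its loss, and CYP1 enzymes break ligands down, so that each of these targets restrains the signal. In the intestine, ligands come from the diet, from microbial metabolism of tryptophan and from the host, and the receptor is needed for innate lymphoid cells that make IL-22.

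The upstream sequences are shown for the letters of the receptor's core element, GCGTG, or CACGC where it lies on the opposite strand, marked in capitals and searched in the 250 bases before the transcript start. Sequences are RefSeq's on GRCm38.p6, and 5 of the 6 members had an entry. They are the windows of Arnt (chr3:95434140-95434389, plus strand), Ahrr (chr13:74292332-74292581, minus strand), Tiparp (chr3:65528197-65528446, plus strand), Cyp1a1 (chr9:57697363-57697612, plus strand) and Cyp1b1 (chr17:79715062-79715311, minus strand), written in the direction of the gene.
Arnt: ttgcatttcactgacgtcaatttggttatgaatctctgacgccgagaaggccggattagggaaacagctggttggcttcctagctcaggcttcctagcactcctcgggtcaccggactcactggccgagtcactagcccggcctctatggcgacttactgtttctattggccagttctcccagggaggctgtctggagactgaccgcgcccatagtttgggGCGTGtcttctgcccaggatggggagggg
Ahrr: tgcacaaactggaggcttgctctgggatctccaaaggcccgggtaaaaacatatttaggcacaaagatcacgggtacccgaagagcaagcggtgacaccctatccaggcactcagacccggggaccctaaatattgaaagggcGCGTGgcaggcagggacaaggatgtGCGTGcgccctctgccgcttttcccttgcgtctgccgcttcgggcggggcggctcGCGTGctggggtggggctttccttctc
Tiparp: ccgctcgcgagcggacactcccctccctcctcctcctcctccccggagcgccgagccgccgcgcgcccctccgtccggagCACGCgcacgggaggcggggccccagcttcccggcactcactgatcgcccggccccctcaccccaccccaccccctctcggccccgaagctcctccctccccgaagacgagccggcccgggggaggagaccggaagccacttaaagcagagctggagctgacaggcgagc
Cyp1a1: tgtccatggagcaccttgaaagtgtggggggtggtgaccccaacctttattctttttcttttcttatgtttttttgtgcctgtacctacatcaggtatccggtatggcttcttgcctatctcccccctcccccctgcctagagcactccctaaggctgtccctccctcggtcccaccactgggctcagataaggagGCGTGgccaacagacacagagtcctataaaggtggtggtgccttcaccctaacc
Cyp1b1: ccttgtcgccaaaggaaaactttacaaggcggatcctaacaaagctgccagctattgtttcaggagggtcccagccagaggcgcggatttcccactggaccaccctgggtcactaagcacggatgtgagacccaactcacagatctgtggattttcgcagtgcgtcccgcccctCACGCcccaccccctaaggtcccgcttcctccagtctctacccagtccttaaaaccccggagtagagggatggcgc

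Every one of these 5 windows holds the core. Ahrr holds 3 copies, whose first bases lie 107, 82 and 27 bases before the start, all on the strand of the gene. The single copy in Arnt begins 29 and that in Cyp1a1 54 bases before the start, on the strand of the gene. Tiparp and Cyp1b1 hold theirs on the opposite strand, beginning 170 and 76 bases before the start. The core is short and common: it is in 28.2% of 32851 windows of this length, and in 44.5% of the 13972 windows whose GC content lies within the range of these 5 (53.6% to 75.2%). The longer form TNGCGTG, which contains the core and was searched on both strands too, is in 1 of the 5 windows, that of Ahrr. It is in 4.1% of all windows and in 6.38% of those within the same GC range. A match describes letters and shows no binding, and receptor elements farther upstream were not searched.

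Array probes lie at these places in mm9, the build of the files. Ahr has a detected probe on chromosome 12 from 36182724 to 36182783 (probe 1). Its dim probe 2, from 36188523 to 36188582, was well above background on 1 of 16 arrays and was not tested. Arnt has detected probes on chromosome 3 from 95301081 to 95301140 (probe 1) and from 95299434 to 95299493 (probe 2), and a dim one from 95264558 to 95264617 (probe 3). Ahrr has a detected probe on chromosome 13 from 74348566 to 74348612 (probe 1). Its dim probe 2, from 74350685 to 74350744, was well above background on 0 of 16 arrays. Tiparp has detected probes on chromosome 3 from 65358749 to 65358808 (probe 1) and from 65357710 to 65357769 (probe 2). Cyp1a1 is read by 1 probe on chromosome 9 from 57551535 to 57551594, and Cyp1b1 by 1 probe on chromosome 17 from 80106547 to 80106606. Exon and UTR positions were not assigned, because no gene models of mm9 were used here. Values are log2 intensity minus the array's own 75th percentile, so 0 is the brightness at that percentile. Values of different probes are not read as relative amounts of transcript.

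The layout of the arrays bears on these genes. They lay on 2 slides, each with 3 5-ASA, 3 Control and 2 Sham arrays. In the first row of arrays on both slides were all Sham mice and Control 1, 2, 4 and 5, and in the second were all 5-ASA mice and Control 3 and 6, so 5-ASA and Sham shared no row. With the array row as a covariate, 5-ASA minus Control thus rests on the second row, where Control 3 and 6 are the only Control mice. The same fit takes Control minus Sham from the first row. It reaches 5-ASA minus Sham only indirectly, through the Control mice of both rows. Spots well above background made up 53.0% to 57.7% of each array in the second row and 59.8% to 65.2% in the first. None of the 11 probes lies in the outer 12 spot rows at either end of the array. Of the tissue markers, 10 of 10 epithelial and 10 of 10 smooth muscle ones passed the filter. So did 10 of 10 fibroblast and 8 of 8 B cell markers, and 24543 of 34947 genes in all. Passing alone therefore does not identify the tissue. As multiples of the 75th percentile, epithelial sums were 1255 to 1519 in 5-ASA, 1338 to 1486 in Control and 1216 to 1384 in Sham.

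Ahr, the receptor itself, had nearly the same level in the 3 groups. It ran from 1.27 (5-ASA 1) over a median of 1.50 to 1.70 (5-ASA 3) in 5-ASA mice, from 1.42 (Control 6) over 1.54 to 1.62 (Control 5) in Control mice, and was 1.58, 1.35, 1.55 and 1.61 in Sham 1 to 4. The means were 1.51 ± 0.15 (SD, n = 6) in 5-ASA, 1.53 ± 0.08 (n = 6) in Control and 1.52 ± 0.12 (n = 4) in Sham. The groups overlapped throughout, and the lowest and the highest of the 16 values were both from 5-ASA mice. In limma the difference was -0.03 (SE 0.08, adjusted p = 0.999) for 5-ASA minus Control, with a 95% interval of -0.20 to 0.14. Control minus Sham was 0.01 (SE 0.09, adjusted p = 0.982), with an interval of -0.18 to 0.20, and 5-ASA minus Sham was -0.02 (SE 0.09, adjusted p = 0.981).

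Arnt, the obligate partner, differed as little. Probe 1 ran from 1.70 (5-ASA 1) over 1.74 to 1.88 (5-ASA 4) in 5-ASA mice, from 1.63 (Control 6) over 1.72 to 1.89 (Control 5) in Control mice, and was 1.77, 1.66, 1.82 and 1.90 in Sham 1 to 4. Each group spans most of the range of the others. The difference for 5-ASA minus Control was 0.03 (SE 0.06, 95% interval -0.11 to 0.16, limma adjusted p = 0.999), or 0.927-fold to 1.12-fold. Control minus Sham was -0.05 (SE 0.07, adjusted p = 0.852) and 5-ASA minus Sham was -0.03 (SE 0.07, adjusted p = 0.962).

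Ahrr, the repressor, varied most between mice among the detected members. It ran from -2.82 (5-ASA 1) over -2.43 to -2.13 (5-ASA 6) in 5-ASA mice, from -2.88 (Control 2) over -2.34 to -2.18 (Control 4) in Control mice, and was -2.44, -2.23, -2.76 and -2.79 in Sham 1 to 4. High and low mice occurred in all 3 groups. The difference was -0.04 (SE 0.15, limma adjusted p = 0.999) for 5-ASA minus Control, and its interval of -0.37 to 0.28, or 0.775-fold to 1.22-fold, is the widest of the 4 members. Control minus Sham was 0.13 (SE 0.17, adjusted p = 0.846) and 5-ASA minus Sham was 0.08 (SE 0.17, adjusted p = 0.935). These last 2 differences were -0.18 and -0.23 on slide 1 alone, and 0.44 and 0.40 on slide 2 alone.

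Tiparp, a target induced early after receptor activation, was slightly lower on average in 5-ASA mice, within the spread. Probe 1 ran from 0.98 (5-ASA 4) over 1.15 to 1.28 (5-ASA 3) in 5-ASA mice, from 1.09 (Control 5) over 1.20 to 1.38 (Control 3) in Control mice, and was 1.28, 1.16, 1.20 and 1.16 in Sham 1 to 4. The 3 lowest values were those of 5-ASA 4, 5 and 6, all on slide 2, while 5-ASA 1, 2 and 3 lay within the Sham range or just above it. The difference for 5-ASA minus Control was -0.08 (SE 0.07, 95% interval -0.24 to 0.07, limma adjusted p = 0.999), or 0.845-fold to 1.05-fold. It was 0.00191 on slide 1 alone, -0.17 on slide 2 alone and -0.14 with the array row as a covariate. The last value has Control 3 and 6 as its only Control mice. Control minus Sham was 0.02 (SE 0.08, adjusted p = 0.962) and 5-ASA minus Sham was -0.07 (SE 0.08, adjusted p = 0.863).

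**Figure D1:**
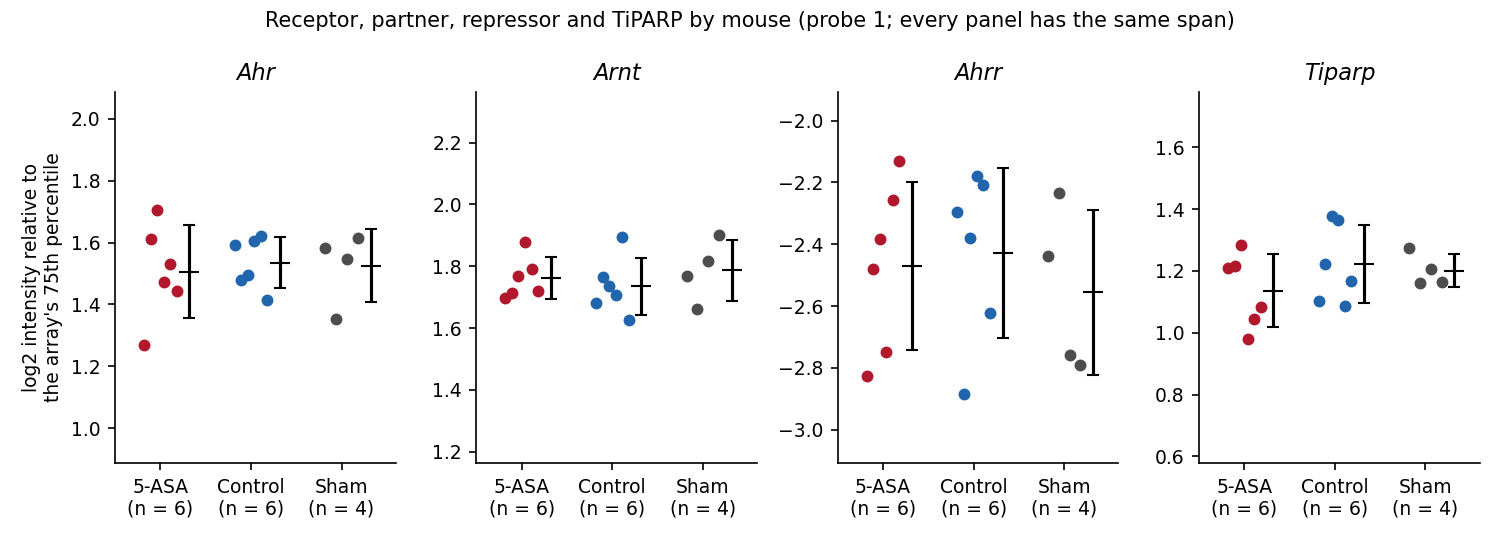
Level of Ahr, Arnt, Ahrr and Tiparp (probe 1 of each) in every mouse, as log2 intensity relative to the array's 75th percentile, with 5-ASA, Control and Sham from left to right; points are mice, and the black bar with whiskers is the group mean ± SD. The 3 groups overlap in every panel, and Ahrr spreads over the widest range, from -2.88 to -2.13.

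Counted over the detected members, 0 of 4 were called in each comparison (limma, adjusted p under 0.05), and 0 of 4 had an unadjusted p under 0.05 on probe 1. Over all 24543 genes, 0% were called for 5-ASA against Control, 0.057% for Control against Sham and 0.057% for 5-ASA against Sham, and in each of the last 2 comparisons 0.00407% were called higher and 0.053% lower. At an unadjusted p under 0.05 there were 993 genes (4.05%), 2179 (8.88%) and 2665 (10.9%), in that order. None of the 4 had groups that did not overlap, against 0.139%, 3.34% and 1.81% of all genes. The median difference of the 4 was -0.04 for 5-ASA minus Control, 0.01 for Control minus Sham and -0.02 for 5-ASA minus Sham, beside -0.00133, 0.00767 and 0.00634 over all genes. Comparisons share groups, so these values are not independent. In bulk tissue, fewer cells of a type and less RNA per cell cannot be told apart, and a change confined to a minor cell type would be diluted in them.

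**Figure D2:**
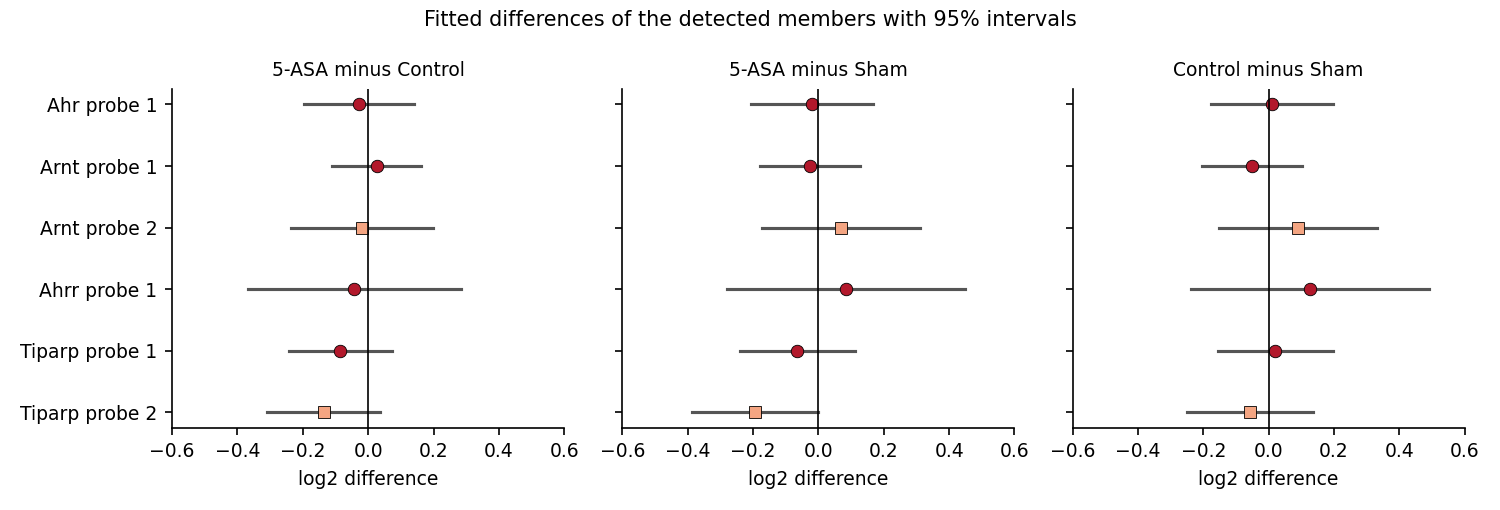
Fitted log2 differences with 95% intervals for the detected probes of the members, for 5-ASA minus Control, 5-ASA minus Sham and Control minus Sham; circles are probe 1 and squares probe 2. Every interval includes 0 except that of Tiparp probe 2 for 5-ASA minus Sham, which ends just below 0.

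On probe 1, the SD within groups was low for 3 of the 4 detected members. It was 0.09 for Arnt, and 1.94% of the genes tested had a lower one. It was 0.11 for Tiparp (7.48% lower) and 0.12 for Ahr (10.7% lower), against 0.27 for Ahrr (53.7% lower) and a median of 0.25 over all genes. These SDs are on the log2 scale. On probe 2 of Arnt the SD was larger, at 0.17 in 5-ASA, 0.19 in Control and 0.12 in Sham, and on probe 2 of Tiparp it was 0.13, 0.14 and 0.10. The mean level of Arnt, Ahr and Tiparp exceeded that of 71.3%, 68.9% and 65.5% of the genes tested, and that of Ahrr exceeded 28.7%.

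Tiparp and Arnt are each read by 2 detected probes. These share each mouse's RNA and array, so they check the readings and are no independent check of a difference between groups. The probes of Tiparp ranked the mice alike, with r = 0.85 (permutation p = 6e-05, adjusted over 2 genes 0.00012) and Spearman rho = 0.85 (permutation p = 9e-05) over 16 mice. With group means removed r was 0.87, without the 2 mice farthest from the median it was 0.78, and on slides 1 and 2 it was 0.93 and 0.80. Tiparp probe 2 ran from 0.39 (5-ASA 6) over 0.57 to 0.70 (5-ASA 3) in 5-ASA mice, from 0.54 (Control 1) over 0.67 to 0.89 (Control 3) in Control mice, and was 0.83, 0.61, 0.75 and 0.83 in Sham 1 to 4. Its difference was -0.14 (SE 0.08, limma adjusted p = 0.999) for 5-ASA minus Control and -0.19 (SE 0.09, 95% interval -0.39 to -5e-05, adjusted p = 0.459) for 5-ASA minus Sham. The unadjusted p of the second was 0.0499, in a comparison where 10.9% of all genes were under 0.05. Both probes of Tiparp thus gave lower means in 5-ASA mice, and neither passed the test.

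The 2 detected probes of Arnt did not follow each other. Over 16 mice r was -0.50 (permutation p = 0.049, adjusted over 2 genes 0.049) and rho was -0.48 (permutation p = 0.061). With group means removed r was -0.47, without the 2 farthest mice it was -0.39, and on slides 1 and 2 it was -0.29 and -0.80. Arnt probe 2 was highest in 5-ASA 1 (-1.01), Control 4 (-1.06) and Control 6 (-1.15), and lay between -1.57 and -1.27 in the other 13 mice. Its differences were -0.02 (SE 0.10), 0.09 (SE 0.11) and 0.07 (SE 0.11) for 5-ASA minus Control, Control minus Sham and 5-ASA minus Sham, each opposite in sign to probe 1 and none called (limma adjusted p from 0.835 to 0.999). The dim probe 3 of Arnt was well above background on 3 of 16 arrays, those of Sham 2, Control 1 and Control 5, all in the first row, and was not tested. Whether the probes read different transcripts was not tested.

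**Figure D3:**
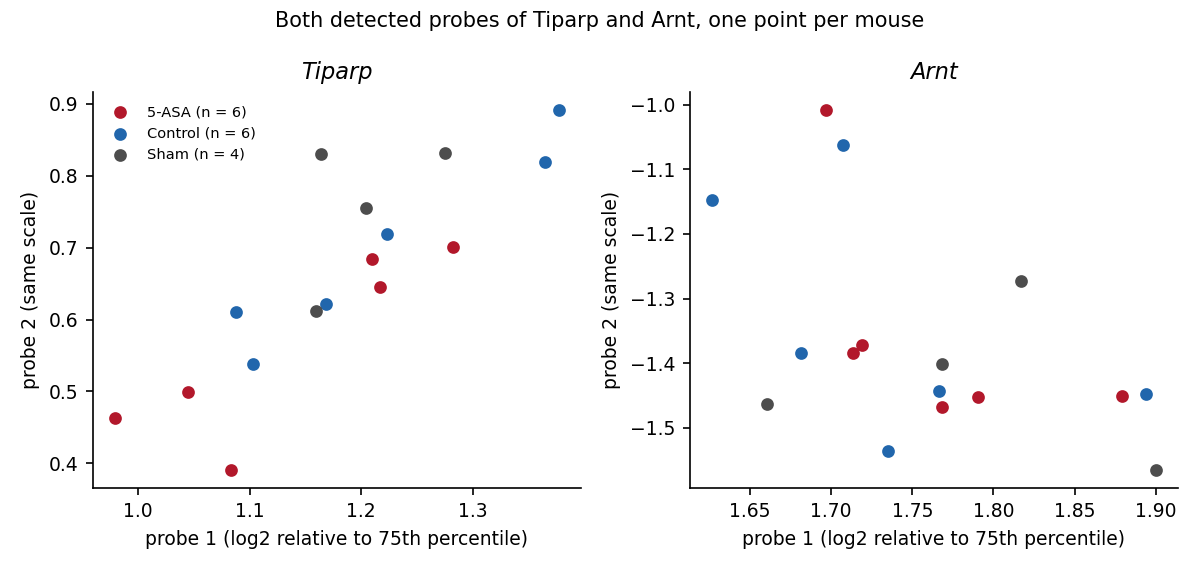
Probe 2 against probe 1 for Tiparp and Arnt, both as log2 intensity relative to the array's 75th percentile, with 1 point per mouse coloured by group. The Tiparp points rise together (r = 0.85), and the Arnt points do not (r = -0.50).

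Cyp1a1 and Cyp1b1, the classical readouts of receptor activity, were not detected. Cyp1a1 was well above background in 0 of 6 5-ASA, 0 of 6 Control and 0 of 4 Sham mice, and so was Cyp1b1. By the scanner's milder flag, positive and significant signal, Cyp1a1 passed in 5-ASA 4 and 5, Control 5 and 6 and Sham 2, and Cyp1b1 in Control 1, 4 and 5 and Sham 1. That is 2 of 6, 2 of 6 and 1 of 4 mice for Cyp1a1, and 0 of 6, 3 of 6 and 1 of 4 for Cyp1b1. Cyp1a2, the third gene of the family, was likewise well above background on 0 arrays.

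The intensity of both probes tracked the row of the array, with means of -6.32 in the second row and -7.61 in the first for Cyp1a1, and of -6.43 and -7.13 for Cyp1b1 (8 arrays each). Cyp1a1 lay from -6.81 (5-ASA 6) over -6.50 to -5.07 (5-ASA 5) in 5-ASA mice, all in the second row. In Control mice it was -5.84 and -6.70 on the arrays of the second row (Control 6 and 3) and between -8.01 and -7.57 on the other 4, and in Sham 1 to 4 it was -7.53, -7.48, -7.24 and -7.54. The 12890 probes never well above background behaved in the same way, with medians per array of -6.63 to -6.17 in the second row and -7.75 to -7.02 in the first. Their median difference was 0.76 for 5-ASA minus Control, 0.85 for 5-ASA minus Sham and 0.05 for Control minus Sham. Cyp1a1 stood above the median of such probes by 1.36 in 5-ASA 5 and by 0.71 in Control 6, and lay between -0.25 and 0.09 of it in the other 14 mice. Its -5.07 in 5-ASA 5 exceeded the lowest probe well above background on that array (-5.34), though the spot itself did not carry that flag.

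Cyp1b1 lay from -6.60 (5-ASA 6) over -6.47 to -6.11 (5-ASA 1) in 5-ASA mice, from -7.76 (Control 4) over -6.59 to -6.20 (Control 1) in Control mice, and was -7.07, -7.47, -7.03 and -7.32 in Sham 1 to 4. Relative to the never detected probes of its array it was highest in Control 1 (1.35) and Control 5 (0.87), and in all 6 5-ASA mice it was within 0.07 of their median. Within the 5-ASA group no mouse stood out for Cyp1b1 and 1 did for Cyp1a1.

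Without the filter on dim probes both genes enter the fit, and neither was called in any comparison. Their limma adjusted p ran from 0.0715 (Cyp1b1, 5-ASA against Sham) to 0.988 (Cyp1a1, Control against Sham). The unfiltered fit called 2937 of 34947 genes (8.4%) for 5-ASA against Control, 2886 of them higher, and 94.3% of the called genes had a probe never well above background. For 5-ASA against Sham it called 3271 (9.36%), with 90.0% never well above background, and for Control against Sham 15 (0.0429%). Between 5-ASA and Sham the row and the group cannot be told apart, and since neither probe was well above background in any group, no difference or fold is given for either gene.

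**Figure D4:**
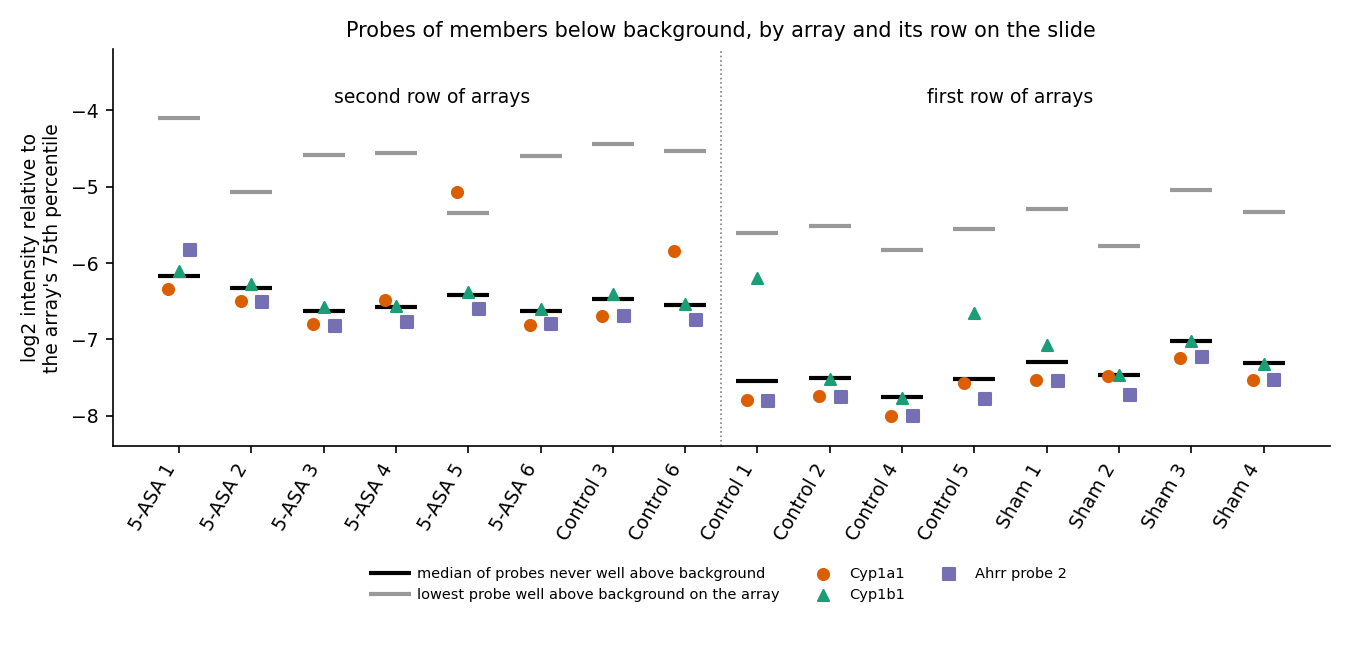
Intensity of Cyp1a1, Cyp1b1 and Ahrr probe 2 on each array, on the same log2 scale, with arrays of the second row on the left and of the first row on the right. Black bars mark each array's median of the 12890 probes never well above background and grey bars its lowest probe well above background; most points sit at or near the black bars, which are higher in the second row.

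Genes whose level followed a member's closely over the 16 arrays were picked by Pearson r among 24472 genes with a value on every array. Transcripts without a gene symbol and clone or predicted names were passed over. Among all 24472 the picked genes ranked 1, 6 and 7 for Ahr, 1, 3 and 4 for Arnt, 3, 4 and 5 for Ahrr and 1, 4 and 5 for Tiparp. For Ahr they were Comp, a cartilage and smooth muscle matrix protein (r = 0.88, and 0.91 with group means removed), the zinc finger factor St18 (0.71) and the olfactory receptor family member Olfr78 (0.70). For Arnt they were the orphan nuclear receptor Nr2c1 (0.86), Ints6l (0.85) and the acid phosphatase Acp6 (0.84). For Ahrr they were the lipid transporter Abca2 (0.71), Ly6g6c (0.70) and the glypican Gpc2 (0.69). For Tiparp they were Lrrfip1 (0.84), the acyl-CoA synthetase Acsl4 (0.81) and the kinase Map2k4 (0.81). Among the members themselves r was 0.44 for Ahr and Arnt, 0.25 for Ahr and Ahrr, 0.18 for Ahr and Tiparp, 0.02 for Ahrr and Tiparp, -0.25 for Arnt and Ahrr and -0.32 for Arnt and Tiparp. The named genes were picked for the highest r among 24472 genes, and the member pairs were not picked by r. Picking alone makes the first set higher, so the sets are not compared. All of these r share the arrays, their scaling and the slides, and they describe 16 mice.

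Transcripts of the proteins that hold the receptor ready or remove it were all higher on average in 5-ASA than in Control mice, without a call. The list includes the co-chaperone Ptges3, the HSP90 genes Hsp90aa1 and Hsp90ab1, and the ubiquitin ligase genes Cul4b and Stub1. For 5-ASA minus Control 6 of 6 were higher with a median of 0.14 and 0 called, and for 5-ASA minus Sham 6 of 6 with a median of 0.22 and 0 called, where 49.6% and 51.4% of all genes were higher. Hsp90ab1 was at 7.19 in 5-ASA and 6.92 in Control, a difference of 0.27 (SE 0.13, limma adjusted p = 0.999), and Cul4b at 0.83 and 0.67, a difference of 0.16 (SE 0.10). Hsp90ab1 was at 0.18 without Control 3 and 0.14 on slide 2 alone. Cul4b was at 0.10 without 5-ASA 1, 0.27 and 0.045 on slides 1 and 2 alone and 0.29 with the array row as a covariate. The last value has Control 3 and 6 as its only Control mice. For Control minus Sham 4 of 6 were higher with a median of 0.09.

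Among the bHLH-PAS relatives, which include the hypoxia factors that also pair with ARNT and the clock factors, 5 of 8 tested genes were higher in 5-ASA than in Control mice, with a median of 0.11 and 0 called. The hypoxia factor Hif1a was at 1.54 in 5-ASA and 1.94 in Control, a difference of -0.40 (SE 0.20), and Hif3a at 0.12 and 0.61, a difference of -0.49 (SE 0.25), both with limma adjusted p = 0.999. Hif1a was at -0.25 without Control 4, -0.16 and -0.65 on slides 1 and 2 alone, -0.65 with the array row as a covariate and -0.98 on another probe, taken when the outer spot rows are left out. Hif3a was at -0.33 without Control 3, -0.74 and -0.25 on slides 1 and 2 alone and -0.87 with the row covariate. For both genes the row covariate leaves Control 3 and 6 as the only Control mice compared. Arnt2 and Sim1 were well above background on 0 arrays.

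The wider set of drug-metabolising genes that the receptor can induce held no called gene in any comparison. Of 9 tested genes 1, Nqo1, was higher in 5-ASA than in Control mice and 8 were lower, with a median of -0.06 and 0 called. Nqo1, a quinone reductase shared with the NRF2 pathway, was at 0.66 in 5-ASA and 0.60 in Control, a difference of 0.06 (SE 0.15), and is named after its value was seen. The flavin monooxygenase Fmo2 was at 0.65 and 1.07, a difference of -0.43 (SE 0.24), and the glutathione transferase Gsta2 at 2.15 and 2.96, a difference of -0.81 (SE 0.49). On slides 1 and 2 alone Fmo2 was at -1.0 and 0.15. Their limma adjusted p was 0.999. For Control minus Sham 4 of 9 were higher (median -0.10) and for 5-ASA minus Sham 4 of 9 (median -0.14), likewise.

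Reference genes of NRF2, the oxidative stress factor that shares Nqo1 with the receptor, held the only call in these lists. Osgin1, a stress-induced growth inhibitor, was at 1.30 in 5-ASA, 1.42 in Control and 1.84 in Sham. It was lower in 5-ASA than in Sham by -0.54 (SE 0.09, limma adjusted p = 0.0326), where 0.053% of all genes were called lower, and it ranged from -0.67 to -0.41 under 29 alternatives, 20 of which lost the call. Leaving out 1 mouse kept the call only for Sham 1 and Control 2, 4 and 6, and gave adjusted p from 0.0159 to 0.186 over the 16 mice. Its differences for 5-ASA minus Control (-0.12, SE 0.08) and Control minus Sham (-0.42, SE 0.09) did not pass (adjusted p = 0.999 and 0.353). The call rests on a comparison in which group and row cannot be told apart. For 5-ASA minus Control 6 of 7 tested genes were lower with a median of -0.06, and the haem oxygenase Hmox1 was at -0.68 in 5-ASA and -0.38 in Control, a difference of -0.30 (SE 0.16), or -0.18 without Control 4.

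Enzymes and transporters of tryptophan, which supply receptor ligands such as kynurenine, showed no shared direction. For 5-ASA minus Control 6 of 14 tested genes were higher and 8 lower, with a median of -0.13 and 0 called. The amino acid oxidase Il4i1 was at -0.48 in 5-ASA and 0.39 in Control, a difference of -0.87 (SE 0.63), and Haao, which acts late in the kynurenine pathway, at -1.81 and -1.26, a difference of -0.55 (SE 0.39). Without Control 4 these were -0.40 and -0.19, and on slide 1 alone -0.46 and -0.12, with Haao at -0.99 on slide 2 alone. For Control minus Sham 5 of 14 were higher (median -0.20) and for 5-ASA minus Sham 6 of 14 (median -0.15), again with 0 called.

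Genes of receptor-dependent lymphoid cells were mostly lower on average in 5-ASA than in Control mice, alongside B cell markers. For 5-ASA minus Control 7 of 8 tested genes were lower, with a median of -0.44 and 0 called, and for 5-ASA minus Sham 5 of 8, with a median of -0.87. Against Sham, Control mice were lower too in 6 of 8, with a median of -0.54 and 0 called. The chemokine receptor Ccr6 was at -2.15 in 5-ASA and -0.55 in Control, a difference of -1.60 (SE 1.01), and the lymphotoxin gene Lta at -4.86 and -3.87, a difference of -0.99 (SE 0.73). Without Control 4, the mouse with the most B cell signal, these were -0.93 and -0.49. On slides 1 and 2 alone Ccr6 was at -0.69 and -2.50 and Lta at -0.46 and -1.53, and Lta was at -0.42 with normexp background and -0.10 in the authors' value table. Both are also expressed by B cells. Ccr6 was well above background on 16 of 16 arrays and Lta on 9, so the means of Lta include values near background. Intensity near background differed between the array rows, and its part in the Lta difference was not tested. Il22, the cytokine most tied to the receptor in the gut, was at -3.89 in 5-ASA and -3.51 in Control, a difference of -0.37 (SE 0.62). Relative to Sham (-4.54) it was higher on average, by 0.65 (SE 0.69) in 5-ASA and 1.03 (SE 0.69) in Control, with limma adjusted p = 0.816 and 0.661. Il22 was well above background on 13 of 16 arrays. It is named for its role and not by its p. Il17a, Il17f, Il23r and Cd160 were well above background on 1 array each and Gpr15 on 3, and were not tested.

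B cell markers leaned the same way: 8 of 8 were lower for 5-ASA minus Control (median -1.11), 8 of 8 for 5-ASA minus Sham (-2.05) and 8 of 8 for Control minus Sham (-1.12), with 0 called in any. Their summed level, in multiples of the 75th percentile, was 1.34 to 3.36 in 5-ASA, 1.21 to 44.1 in Control and 1.04 to 37.7 in Sham, so high mice occurred in the last 2 groups only. In Control 1 mouse was far above the rest (Control 4 at 44.1, the next at 6.21), and in Sham 3 of 4 mice were high (18.5, 22.8 and 37.7) and Sham 1 was low. The B cell surface gene Ms4a1 was at -3.24 in 5-ASA and -0.81 in Control, a difference of -2.43 (SE 1.39, limma adjusted p = 0.999). The part of B cells in the lymphoid list was not tested. Of the other marker lists for 5-ASA minus Control, smooth muscle (10 of 10 higher, median 0.40), enteric neuron and glia (10 of 10, 0.24), fibroblast (9 of 10, 0.33), erythroid (5 of 5 lower, -1.49), T cell (7 of 7 lower, -0.17) and macrophage and monocyte (6 of 7 lower, -0.11) leaned one way, each with 0 called. Of all genes, 49.6% were higher in this comparison. Mice within Control differed widely: the erythroid summed level was 258 in Control 1, 115 in Control 5 and 24.4 to 36.8 in the other Control mice. The smooth muscle sum was 426 in Control 4, 353 in Control 6 and 711 to 1195 in the other Control mice. The median was -0.03 for epithelium and -0.01 for the reference genes.

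**Figure D5:**
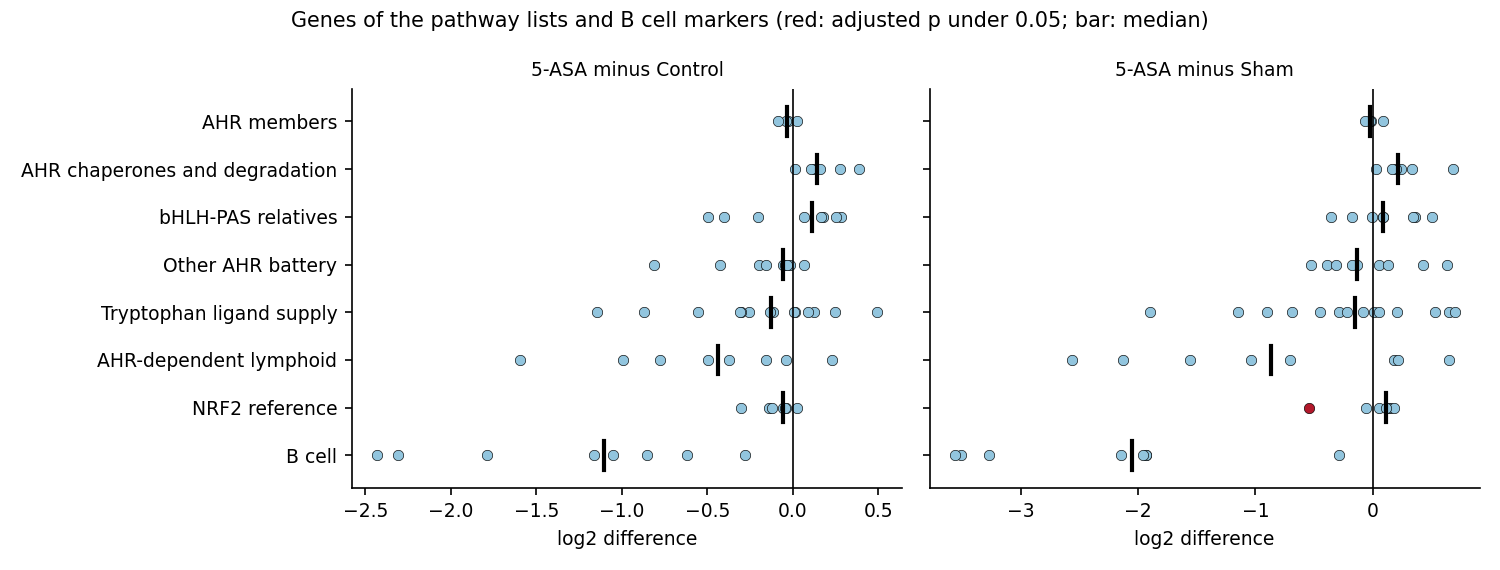
Log2 differences of every tested gene of the pathway lists and of the B cell markers, for 5-ASA minus Control and 5-ASA minus Sham, on separate scales; points are genes, black bars are list medians, and red marks adjusted p under 0.05. The receptor's own members lie between -0.08 and 0.03 for 5-ASA minus Control, B cell markers lie below 0, and Osgin1 is the only red point.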

How the data were processed

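Per the labels, each mouse gave 0.2 ug RNA for Cy3 labelling and a single Agilent 1-colour array. Per the file headers, the deposited intensity of a spot had its background removed and its spatial trend corrected in Feature Extraction 10.10.1.1, with no scaling from array to array. Flags in the same files mark saturation, outlying spots, and 2 grades of signal over background. The deposited value table states no scale. Compared with the scanner values (r from 0.929 to 0.986), it holds log2 values shifted by the 75th percentile and centred on the Sham median of each probe (at most 5e-07 off 0), which was inferred and not stated by the authors. Its column medians, sorted, were 0.111, 0.113, 0.135, 0.136, 0.177 and 0.223 over 5-ASA arrays, -0.188, -0.0616, -0.0434, -0.0323, 0.147 and 0.206 over Control arrays, and -0.0461, -0.00654, -0.000851 and 0.0709 over Sham arrays.

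Here, log2 processed intensity minus the array's 75th percentile was taken over non-control spots without outlying ones. Of 55681 probes 27656 were named by accession through RefSeq's table for GRCm38.p6, used for names alone, and the rest kept the file's name. A probe was kept (35087 were) if the stricter flag was set in 4 or more mice, and the brightest stood for its gene, called probe 1 for the members. One limma 3.58.1 model (R 4.3.3) held all genes and the 3 groups, with two-sided tests and Benjamini-Hochberg adjusted p under 0.05. The fit was tested on simulated data with known changes. Correlations used 1e+05 permutations.

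The members, the 18 lists and the tests were chosen with earlier results of these data known. Genes were named by rule: all members, called list members (up to 4), otherwise the 2 list members with the smallest p in 5-ASA against Control. In the text this naming was kept to the pathway lists and B cells, and other marker lists are given as counts. One gene that the rule names is not reported here. For likeness, the 3 genes with the highest r were taken after passing over clone and predicted names. Titles number the replicates, but not every pair of same-numbered mice correlated above 0.1, so they were not paired. Alternatives covered background correction, scaling, the filter, slide, array row, spot rows, replicate number, groups in the fit, single mice, the authors' log2 table and other probes. The array rows taken singly were added after seeing the data.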

Additional observations from a re-analysis of the deposited data

Results flagged for a closer look

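A mouse was picked out where its gap to the nearest mouse of its group was large against the range of that group (Dixon's test at the 95% level), over the 11 probes in 3 groups. Of 33 such tests 3 picked out a mouse, and chance flags about 1 in 20 groups. Arnt probe 2 was at -1.01 in 5-ASA 1, the highest of the 6 5-ASA mice. Ahrr probe 2, well above background on 0 of 16 arrays, was at -5.83 in 5-ASA 1, the array with the highest median of never detected probes (-6.17). Cyp1a1 was at -5.07 in 5-ASA 5, with the next 5-ASA mouse at -6.35. None of the 3 enters the test of the main probes.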

How the results depend on the processing

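Under the alternatives, 0 members were called in any comparison: over 362 values the lowest adjusted p was 0.459, and 41 values had the opposite sign. On slide 2 alone Ahrr was at 0.44 (Control minus Sham) and 0.40 (5-ASA minus Sham), and Tiparp at -0.17 (5-ASA minus Control). The values with the opposite sign were these. For 5-ASA minus Control, normexp background gave 0.049 for Ahrr, slide 1 alone 0.00671 for Ahr, -0.00159 for Arnt and 0.00191 for Tiparp, the array row as covariate, and row 2 alone, 0.051 for Ahr and 0.030 for Ahrr, and Arnt's other probe -0.019. For Control minus Sham, quantile scaling gave -0.017 for Ahr and -0.00127 for Tiparp, median scaling -0.00383 for Ahr, slide 1 alone 0.013 for Arnt and -0.18 for Ahrr, slide 2 alone -0.035 for Ahr, the row covariate and row 1 alone -0.00627 for Tiparp, and the other probes -0.058 for Tiparp and 0.088 for Arnt. For 5-ASA minus Sham, slide 1 alone gave 0.061 for Ahr, 0.012 for Arnt, -0.23 for Ahrr and 0.019 for Tiparp, the row covariate 0.10 for Ahr and 0.056 for Arnt, and Arnt's other probe 0.070. The row covariate reaches 5-ASA minus Sham only through the Control mice, since those groups share no row, and is no direct correction. Leaving out single mice turned the sign of Ahr (-0.068 to 0.019) and Ahrr (-0.13 to 0.029) for 5-ASA minus Control, Ahr (-0.048 to 0.040) and Tiparp (-0.012 to 0.046) for Control minus Sham, and Ahr (-0.076 to 0.029) and Arnt (-0.067 to 0.013) for 5-ASA minus Sham. Of 446 list gene values 1 had the opposite sign, Fmo2 at 0.15 on slide 2 alone. These list genes were picked by small p in these same data, which favours a steady sign. Their count is therefore not compared with that of the members. The cause of the changes in sign was not tested.

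All genes called numbered 0 between 5-ASA and Control, 14 between Control and Sham and 14 between 5-ASA and Sham. Without the filter 2937 were called between 5-ASA and Control and 3271 between 5-ASA and Sham. Requiring all 16 arrays left 1 for Control against Sham and 2 for 5-ASA against Sham. Slide 1 alone gave 4 and 2 for these, and slide 2 alone 1 and 4, with 1 for 5-ASA against Control. The row covariate gave 7 between 5-ASA and Control and 8 between 5-ASA and Sham, the latter only through the Control mice of both rows. Without the outer 12 spot rows both comparisons with Sham had 0. Fitting only the 2 groups, and row 1 alone, gave 7 and 1 for Control against Sham. Leaving out single mice gave 0 between 5-ASA and Control, 10 to 16 between Control and Sham and 11 to 23 between 5-ASA and Sham, the highest without 5-ASA 4. Same-numbered mice correlated by 0.03 to 0.23 (5-ASA and Control), -0.21 to 0.61 (Control and Sham) and -0.20 to 0.16 (5-ASA and Sham), and 2 of 6, 1 of 4 and 2 of 4 pairs were best matched by number. They share only a number. With the replicate number as a block, 0, 10 and 12 genes were called in these 3 comparisons in the same order, the 5-ASA minus Control difference was -0.03 for Ahr, 0.03 for Arnt, -0.04 for Ahrr and -0.08 for Tiparp, and Osgin1 lost its call (limma adjusted p = 0.186).

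Signal over background limits Cyp1a1 and Cyp1b1: a rise that stayed below background in bulk colon was not detectable here, and protein and enzyme activity were not measured.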
